A study of Mus musculus with 8 samples.

Results

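Cytosolic ribosomal protein genes encode the proteins of the large and small subunits of the ribosome that translates nuclear mRNA. They were taken as the protein-coding mouse genes whose symbol is Rpl or Rps followed by a digit, together with Rplp0, Rplp1, Rplp2 and Rpsa, without the Rps6k kinases and without pseudogenes. RefSeq held 89 such genes on the mouse build GRCm38.p6, and all 89 were found among the 55401 genes of the count table. They comprised 77 core ribosomal proteins, 46 of the large and 31 of the small subunit. The 12 others were the paralogues Rpl3l, Rpl7l1, Rpl10l, Rpl22l1, Rpl32l, Rpl36al, Rpl39l and Rps27l, the retrogenes Rpl37rt and Rps27rt, and Rps19bp1 and Rps23rg1, whose names fit the pattern although their products are not ribosomal proteins. Fau, which encodes a ribosomal protein as a fusion, has a symbol outside the pattern and is given separately.

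In RNA immunoprecipitation (RIP) an antibody pulls its protein out of lysed tissue, and whatever RNA is carried down is sequenced. The 8 libraries came from C57BL/6 mouse tissue labelled hippocampus, with no genotype, treatment or age stated. They formed 3 groups: 3 made with an antibody against CaMKIIβ, a subunit of the synaptic kinase calcium/calmodulin-dependent protein kinase II, 3 made with control IgG, and 2 of Input RNA that had not been precipitated. The labels do not say whether replicates came from separate animals, so p-values measure only the spread between these libraries.

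Total counts lay between 17273957 and 28138289 per library, and ribosomal protein genes held 0.319% to 0.504% of them. CaMKIIβ RIP replicate 2 stood apart in genes detected, at 19247 against 24865 to 31152 elsewhere. Its total was the lowest, though close to the 17776157 of Input replicate 1. Counts and medians of the comparisons that use it, and the genes named in them, are therefore also given without it. All 10 markers of hippocampal neurons were detected, at a summed 325 to 379 CPM (counts relative to library size, as CPM from edgeR, scaled to a common library size over the 8 libraries). The 9 genes listed as markers of cerebellar granule cells summed to 5069 to 5245 CPM in Input, 7376 to 8226 in CaMKIIβ RIP and 7632 to 8042 in IgG RIP. The 7 Purkinje cell markers summed to 4392 to 4438, 7426 to 8633 and 7569 to 8000 CPM, and none of the 26 genes was at 0 counts in any library. The summed levels of both cerebellar lists were thus higher in every RIP library than in Input, but 1 gene carried each rise. Fat2 was at 1555 ± 72.1 CPM in Input (SD, n = 2) and 4369 ± 158 with IgG (n = 3), and Itpr1 at 2524 ± 38.4 and 6223 ± 290.2. By edgeR's quasi-likelihood test 4 granule markers rose and 3 fell in IgG RIP against Input, among the latter Gabra6 (log2 fold change -0.88), and 3 Purkinje markers rose and 3 fell, among the latter Calb1 (-0.70). The part of these markers in the differences between RIP and Input was not tested, nor was how far either list is particular to cerebellar cells. In these bulk libraries fewer cells of a type and less RNA per cell cannot be told apart.

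Ribosomal protein mRNAs are known as a coordinately regulated class. Their shared mark is the 5′ terminal oligopyrimidine (TOP) tract, a C at the cap followed by an unbroken run of pyrimidines, through which their translation is switched on and off by the mTORC1 pathway and the RNA-binding protein LARP1. In neurons they are among the mRNAs found in dendrites and axons, and new ribosomal proteins can join existing ribosomes there.

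The starts of these genes were read from the RefSeq promoter windows on GRCm38.p6, which held 69 of the 89 members. A run was counted where a C began within 5 bases of the annotated start on the gene's own strand and at least 4 further pyrimidines followed it. Such a run was present in 32 of the 69 members (46.4%), in 17 of 69 mitochondrial ribosomal protein genes (24.6%) and in 3767 of 17492 protein-coding genes with a window (21.5%). Annotated starts can lie several bases from the true cap site. The windows below cover 10 bases before the annotated start and 20 from it, with any run in capitals. They show members that were lower in IgG RIP than in Input (the first 4) and members that were higher (the last 4), and both sets hold starts with and without a run.
Rpl39, chrX:37085203-37085232, minus strand: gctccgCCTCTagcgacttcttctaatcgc
Rps27, chr3:90213629-90213658, minus strand: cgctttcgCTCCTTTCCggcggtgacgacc
Rpl34, chr3:130730379-130730408, minus strand: tccctgacgtaCTTCCTgtccggcgccgtc
Rpl37, chr15:5116603-5116632, plus strand: cctgggcggaagcttatccacaggaagtgg
Rpl28, chr7:4792955-4792984, plus strand: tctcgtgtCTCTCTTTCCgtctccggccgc
Rps2, chr17:24720053-24720082, plus strand: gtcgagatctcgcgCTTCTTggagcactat
Rplp0, chr5:115559457-115559486, plus strand: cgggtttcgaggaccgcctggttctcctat
Rpsa, chr9:120127756-120127785, plus strand: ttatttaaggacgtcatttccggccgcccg

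In Input, levels scaled to exon length (CPM per kilobase of annotated exon) differed widely between members, although 1 copy of most of these proteins goes into each ribosome. The highest was Rplp1, a protein of the acidic stalk, at 147 ± 47.3 CPM per kb (SD, n = 2). Rps15 of the small subunit head followed at 115 ± 8.67, then Rps3a1 at 88.0 ± 6.99, Rpl4 at 75.9 ± 2.06 and Rpl38 at 63.8 ± 14.9. With an SD of 47.3, Rplp1 was not separated from Rps15. The lowest tested levels were those of Rpl36al (0.448 ± 0.040), Rps10 (1.31 ± 0.17), Rpl24 (1.35 ± 0.21), Rpl37rt (1.65 ± 0.0052) and Rpl32l (2.71 ± 0.19). The highest core member thus stood 112.6-fold above the lowest. Exon length in the table is that of all annotated exons together, retained introns included, and the treatment of reads that also match a pseudogene is not given in the sources used here. Core members under 10 CPM in both Inputs, picked out after their values were seen, were Rps10, Rpl13a, Rpl23a and Rpl24. RefSeq listed 4, 1, 13 and 0 pseudogenes that carry their names. These low levels are uncertain, and the part of shared reads in them was not tested.

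Summed over all members, the level was 4063 and 4617 CPM in the Input libraries. It was 3624, 3264 and 3459 CPM in IgG RIP replicates 1 to 3, and 3566, 4142 and 3476 in CaMKIIβ RIP replicates 1 to 3. Both Inputs lay above every IgG RIP library, while CaMKIIβ RIP replicate 2 lay between the Inputs. The core large subunit members alone summed to 2351 and 2699 CPM in Input, 1892 to 2139 in IgG RIP and 2043 to 2497 in CaMKIIβ RIP. The core small subunit members summed to 1653 and 1859 CPM in Input, 1339 to 1447 in IgG RIP and 1401 to 1594 in CaMKIIβ RIP. For the small subunit every RIP library lay below both Inputs. Levels were scaled to library size, so the total amount of RNA recovered by an antibody cannot be seen in any of these values.

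IgG RIP against Input shows which transcripts were at another level in the material that came down with a control antibody. Most ribosomal protein transcripts were lower there, and a small group was higher. By edgeR's quasi-likelihood test with Benjamini-Hochberg adjustment over all genes, 50 of 85 members tested fell (58.8%) and 9 rose (10.6%). Over all 22342 genes tested 38.7% passed the threshold, 18.7% lower and 20.1% higher. The IgG RIP libraries lay wholly below the Inputs for 60 members (70.6%, against 33.8% of all genes) and wholly above for 9 (10.6%, against 26.8%). The median log2 fold change was -0.49 for the members and -0.02 for all genes tested. It was -0.35 for the 46 core large subunit genes, of which 24 fell and 6 rose, and -0.69 for the 31 of the small subunit, of which 23 fell and 3 rose. The difference between the subunits was not tested. Of 5 blood markers 3 fell, the globins Hbb-bs (-1.07), Hba-a1 (-0.97) and Hbb-bt (-2.78), and 0 rose, with a list median of -0.97. Alas2 went the other way, at 0.26 ± 0.11, and did not pass. The summed level of the blood markers was 318 to 319 CPM in Input and 160 to 177 with IgG. Their part in the result was not tested. Scaled by library size alone, 61 members fell and 5 rose, and the calls over all genes moved to 28.4% lower and 12.1% higher. Each IgG RIP library left out in turn gave 45 to 50 members lower (17.9% to 19.8% of all genes) and 6 to 12 higher (18.9% to 21.3% of all genes).

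**Figure D1:**
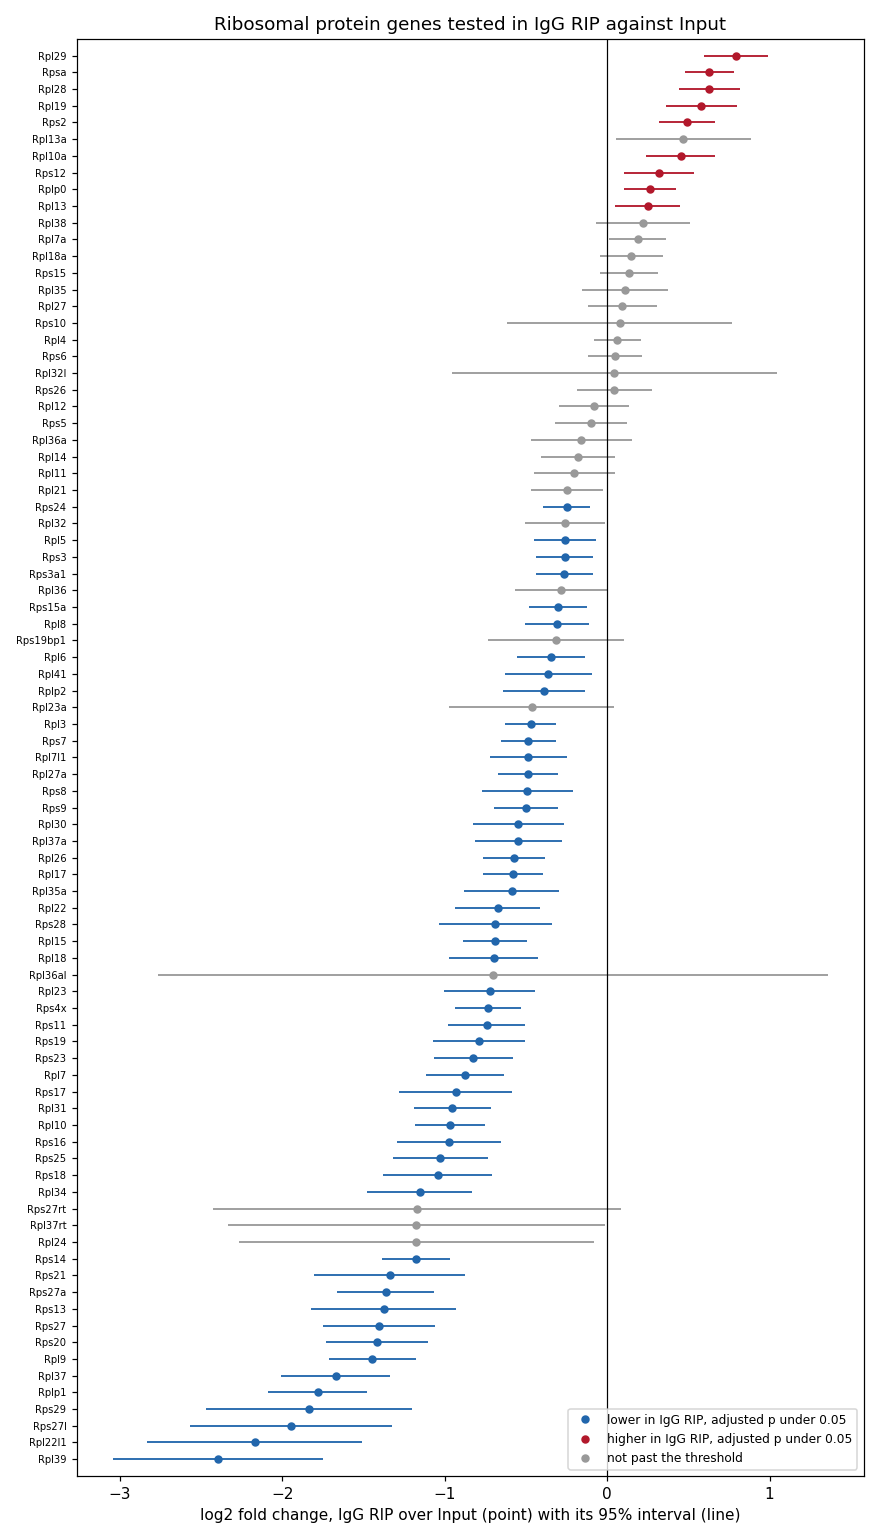
Log2 fold change of IgG RIP over Input (points, x axis) with its 95% interval (lines) for each of the 85 ribosomal protein genes tested, ordered by value, with separate colours for members that fell, that rose and that passed neither threshold. The 50 members that fell reach down to -2.40 for Rpl39, while the 9 that rose reach 0.79 for Rpl29.

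The largest fall was that of Rpl39 (ENSMUSG00000079641.3, chromosome X, 37082520 to 37085402), a small protein that lines the exit tunnel of the nascent chain. Its transcript was at 9.14 and 25.8 CPM in the Inputs, and at 3.64, 3.06 and 2.95 CPM in the IgG RIP libraries. The groups did not overlap, although the Inputs themselves lay far apart. The log2 fold change was -2.40 ± 0.31 (SE), with an adjusted p of 8.12e-06.

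Rplp1 (ENSMUSG00000007892.8, chromosome 9, 61913284 to 61914542), which recruits elongation factors to the ribosome as part of the stalk, fell from 56.9 and 90.3 CPM in Input to 19.5, 20.9 and 21.5 CPM with IgG. The 3 IgG values were close together, and the log2 fold change was -1.78 ± 0.14 (adjusted p = 5.15e-08). Rpl37, a zinc-binding protein of the large subunit, was at 25.6 and 37.7 CPM in Input and at 8.46, 10.05 and 10.2 CPM with IgG. Its change was -1.67 ± 0.16 on the log2 scale (adjusted p = 3.29e-07). Rpl9, a protein of the large subunit near the base of the stalk, was at 58.3 and 81.7 CPM in Input and at 27.8, 24.2 and 22.5 CPM with IgG, a change of -1.45 ± 0.13 (adjusted p = 1.46e-07). In each of these genes Input replicate 2 was the highest library and every IgG library lay below both Inputs.

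In the small subunit, Rps29, which sits in the head near the decoding site, had 12.8 and 33.3 CPM in Input against 4.99, 6.58 and 7.10 CPM with IgG. It fell by 1.84 ± 0.29 on the log2 scale, but not past the threshold without IgG RIP replicate 2 (log2 fold change -1.86) or with limma-voom (-1.73). Rps20, another protein of the head, was at 27.4 and 40.2 CPM in Input and at 12.6, 12.7 and 11.4 CPM with IgG, a log2 fold change of -1.42 ± 0.15. The groups lay apart in both genes. Rps27a (ENSMUSG00000020460.15, chromosome 11, 29545846 to 29548109), made as a fusion with ubiquitin, fell from 35.0 and 51.8 CPM to 17.4, 15.4 and 16.0 CPM (adjusted p = 8.2e-07).

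The 9 members that rose were Rpl29, Rpsa, Rpl28, Rpl19, Rps2, Rpl10a, Rps12, Rplp0 and Rpl13. Rpl29 (ENSMUSG00000048758.14, chromosome 9, 106429454 to 106431568), a small basic protein of the large subunit, was at 50.2 and 47.8 CPM in Input and at 80.8, 74.0 and 90.4 CPM with IgG. All IgG libraries lay above both Inputs, with a log2 fold change of 0.79 ± 0.09 (adjusted p = 3.02e-06). Rpsa (ENSMUSG00000032518.6, chromosome 9, 120127689 to 120132369), a small subunit protein also known as the laminin receptor, was at 151.7 and 137.5 CPM in Input and at 215.9, 202 and 227.9 CPM with IgG, a change of 0.63 ± 0.07. Rpl28 rose from 41.9 and 42.4 CPM to 62.8, 59.1 and 66.5 CPM (0.63 ± 0.09), again with no overlap. Rpl19, which lies close to the tunnel exit and bridges the subunits, had 46.4 and 50.7 CPM in Input and 75.9, 59.7 and 74.2 CPM with IgG.

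Rps2, on the mRNA entry side of the small subunit, had 80.6 and 71.4 CPM in Input and 101.3, 97.9 and 108.9 CPM with IgG, a log2 fold change of 0.49 ± 0.08. Changes in the other 4 were 0.45 ± 0.10 for Rpl10a, 0.32 ± 0.10 for Rps12, 0.26 ± 0.08 for Rplp0 and 0.25 ± 0.09 for Rpl13. None of the 9 doubled. Rpl10a, Rps12 and Rplp0 were no longer past the threshold with library size scaling, where their log2 fold changes were 0.23, 0.09 and 0.04. Rps12 and Rplp0 also lost it without IgG RIP replicate 1 (0.21 and 0.22). Without Input replicate 2 their log2 fold changes were 0.25 and 0.23. In a fit of all 8 libraries 2 members rose (8.75% of all genes), Rpl28 and Rps2. Rpl29 (0.74), Rpsa (0.57), Rpl19 (0.53), Rpl10a (0.40), Rps12 (0.26) and Rplp0 (0.21) did not pass there.

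**Figure D2:**
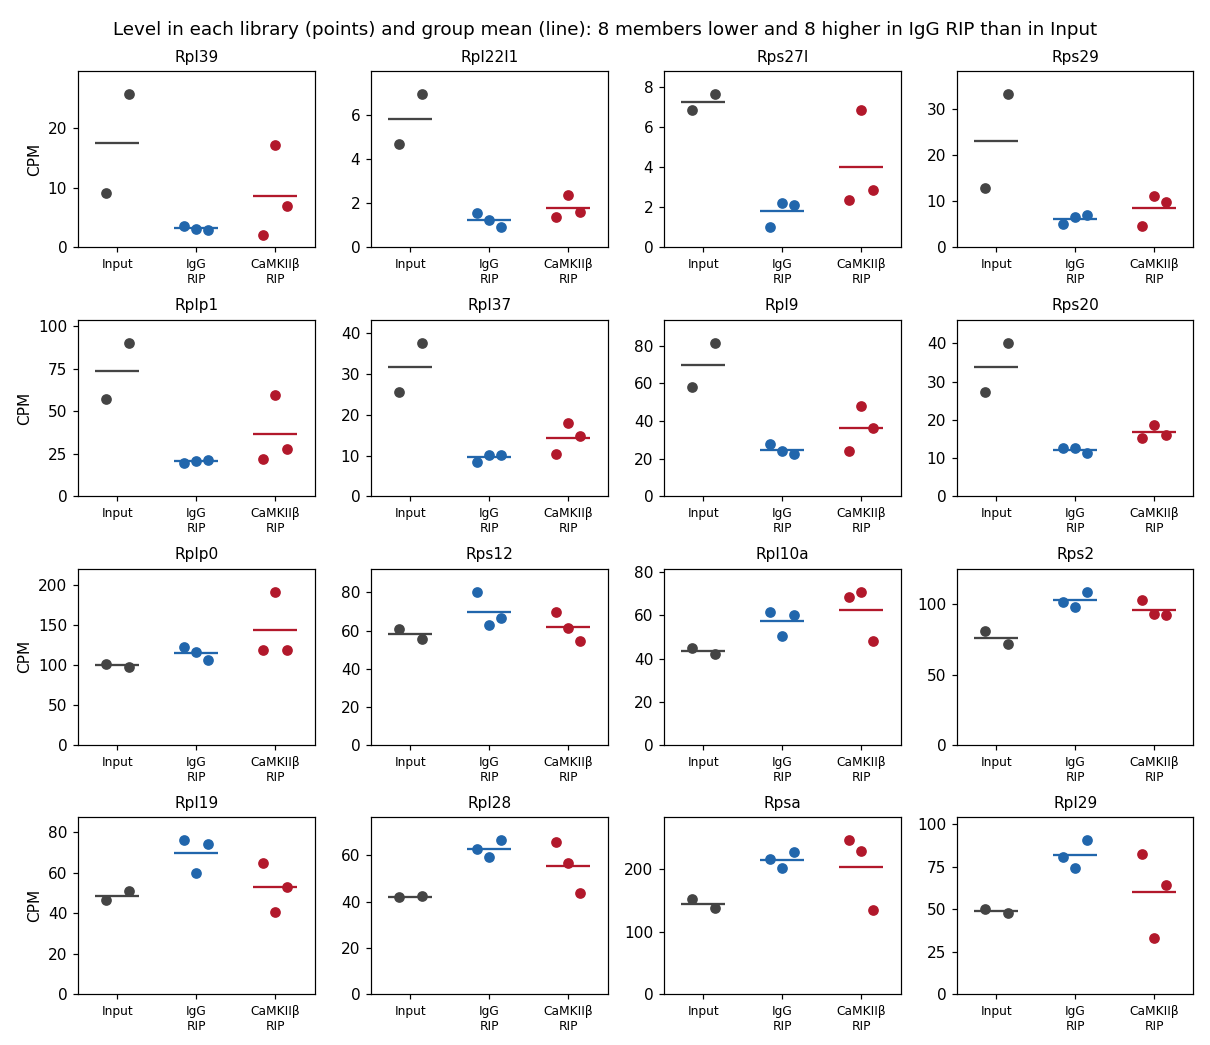
Level in CPM (y axis, from 0) in each Input, IgG RIP and CaMKIIβ RIP library (points) with the group mean (line), for 8 members that fell and 8 that rose with IgG. In the former the IgG points lie together below both Inputs, as for Rplp1 at 19.5 to 21.5 against 56.9 and 90.3 CPM, while the CaMKIIβ points spread more widely.

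Members of the stalk, of the mRNA entry side and of the exit tunnel changed in both directions, while those near the peptidyl transferase centre fell. These groupings by position were drawn up after the values were seen. In the stalk, Rplp0, its anchor on the ribosome, rose by 0.26 on the log2 scale, while Rplp1 and Rplp2 fell by 1.78 and 0.39, and Rpl12 at the base was at -0.08 ± 0.10, not past the threshold. On the mRNA entry side, Rps2 rose while Rps3 fell by 0.26 ± 0.08. Of 9 proteins that line or surround the exit tunnel, 5 fell, 1 rose (Rpl19) and 3 passed neither threshold, among them Rpl4 at 0.06 ± 0.07. The 3 that reach towards the peptidyl transferase centre all fell, by 0.97 ± 0.10 for Rpl10, 0.47 ± 0.08 for Rpl3 and 0.31 ± 0.09 for Rpl8. Of the 2 proteins that bind 5S rRNA, Rpl5 fell by 0.26 ± 0.09, and Rpl11 was at -0.20 ± 0.12, which did not pass.

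Some members stayed within narrow limits. Rps6, the small subunit protein phosphorylated downstream of mTORC1, averaged 91.5 CPM in Input, 91.0 with IgG and 93.4 with CaMKIIβ. Its log2 fold change of IgG RIP over Input was 0.05, with a 95% interval from -0.12 to 0.21. Over all members tested in this comparison, the interval lay within 2-fold on both sides for 55 of 85, against 51.2% of all genes. Of the 50 members that fell, 16 did so by at least 2-fold, a share not counted over all genes.

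Of the paralogues, Rpl22l1, Rps27l and Rpl7l1 fell, as did Rpl22, Rps27 and Rpl7, their partners. Rpl22l1, the paralogue of the RNA-binding protein Rpl22, was at 4.70 and 6.95 CPM in Input and at 1.57, 1.25 and 0.935 CPM with IgG, a log2 fold change of -2.17 ± 0.31 (adjusted p = 2.76e-05). Rpl22 itself fell by 0.67 on the log2 scale. Per kilobase, Rpl22l1 stood at 2.93, 0.63 and 0.893 CPM in Input, IgG RIP and CaMKIIβ RIP, below the 12.8, 7.75 and 10.07 of Rpl22. Rps27l was at 6.82 and 7.64 CPM in Input and at 1.04, 2.22 and 2.13 CPM with IgG, and fell by 1.95 ± 0.29 (adjusted p = 4.63e-05). Its partner Rps27 fell by 1.40 ± 0.16. Rpl7l1, a nucleolar relative of Rpl7, fell by 0.49 on the log2 scale, and Rpl7 fell by 0.88 ± 0.11. Whether a paralogue and its partner differed was not tested.

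Rpl10l, known from the testis, had 0 counts in all 8 libraries, and Rpl39l had 1 count in all. Rpl3l, known from striated muscle, held 31 counts over the 8 libraries. These 3 and Rps23rg1, with at most 4 counts in any library, failed the filter on low counts in every comparison. The retrogene Rps27rt failed it only between the antibodies, which left 84 members tested there.

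Other genes of the translation apparatus were counted in the same fit, on lists taken from general knowledge. Of 20 further mRNAs known to carry a TOP tract, 9 fell and 6 rose, with a median of -0.18. Tpt1, the growth-related protein TCTP, fell from 217 ± 22.2 CPM in Input (SD, n = 2) to 117 ± 2.97 with IgG (n = 3), and the histone chaperone Nap1l1 fell by 0.79 on the log2 scale. The translocase Eef2 rose from 791 ± 29.8 to 1464 ± 76.3 CPM, and Eef1a1, which delivers aminoacyl-tRNA, rose by 0.65 ± 0.06. Among 14 other elongation and termination factors, 8 fell and 2 rose. Eef1a2, the neuronal form of Eef1a1, rose by 0.91 ± 0.07, and Mcts1, a recycling factor, fell by 2.12 ± 0.17. Among 30 ribosome biogenesis factors 10 fell and 7 rose, with a median of -0.02. Rrp12, which acts in subunit maturation and export, rose by 0.97 ± 0.10, and the snoRNP protein Nop58 fell by 0.87 ± 0.09.

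Of 75 mitochondrial ribosomal protein genes, 23 fell and 8 rose, with a median of -0.22. Mrps14 was among those that fell, from 16.2 ± 2.20 to 5.36 ± 0.73 CPM. Fau, outside the naming pattern, rose from 46.2 ± 3.03 to 69.5 ± 1.72 CPM (adjusted p = 1.03e-05). Among 47 annotated ribosomal protein pseudogenes with enough counts, 3 fell and 0 rose. The lists were not tested against each other.

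**Figure D3:**
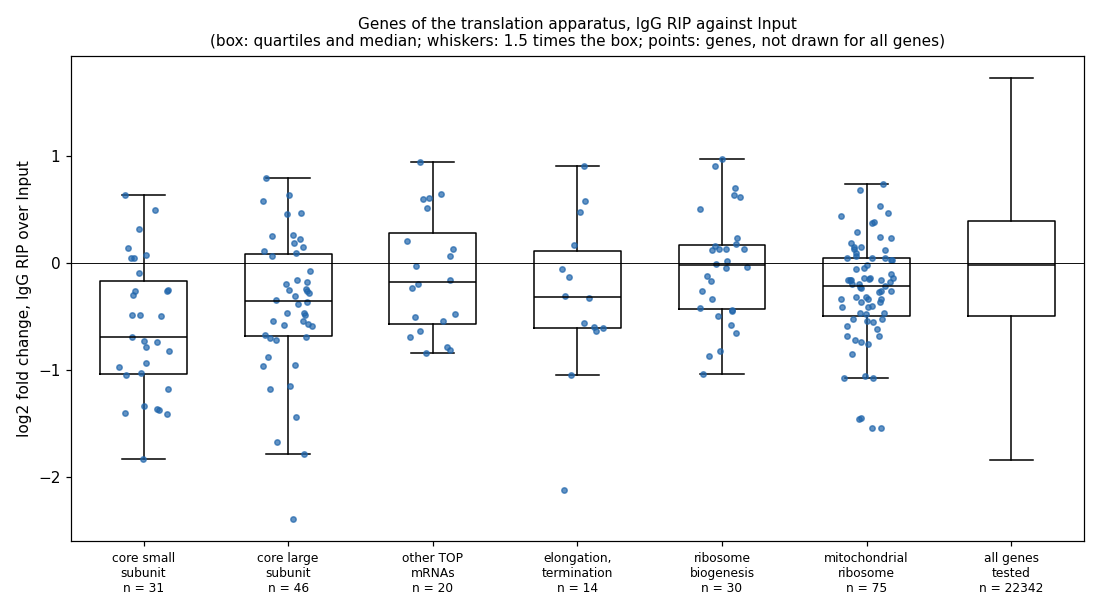
Log2 fold change of IgG RIP over Input (y axis) for lists of genes of the translation apparatus and for all genes tested (box, quartiles and median; whiskers, 1.5 times the box; points, single genes). The medians of the core small and large subunits, -0.69 and -0.35, lie below that of all genes, -0.02, while ribosome biogenesis factors centre on -0.02.

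Members differed in how many pseudogenes carry their name. RefSeq listed 316 pseudogenes for 63 of the members. The 9 members that rose had a median of 6 named pseudogenes (1 to 23), the 50 that fell had a median of 1.5 and the 26 others a median of 1. At least 4 were named for 8 of 9, 15 of 50 and 7 of 26 members. Over the 85 members Spearman's rho between the log2 fold change and the number of named pseudogenes was 0.26, as a description of genes that share libraries. Counts assigned to the 299 pseudogenes in the table made up 0.774% to 1.47% of those of genes and pseudogenes together. The part of shared reads in the differences was not tested.

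A TOP-like run stood at the start of 17 of 37 members that fell (45.9%), 3 of 8 that rose (37.5%) and 11 of 20 that passed neither threshold (55.0%), among members with a promoter window. Over members, the rho of exon length with the log2 fold change was 0.06, and over all genes tested it was 0.16, with a median exon length of 1734 bases for members and 3313 for all genes.

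The Input libraries differed from each other in these genes. Of 77 core members, 63 were higher in Input replicate 2, with a median log2 ratio of 0.19, against -0.00 for all genes tested. The ratio exceeded 0.4 for 24.7% of core members and for 6.91% of all genes. Rpl39 and Rps29 were more than doubled in Input replicate 2, as their values above show. With Input replicate 2 left out, fewer members passed as lower in IgG RIP than with both Inputs, and fewer of all genes did. Leaving out either Input leaves 1 Input library, which is assumed to vary like the IgG RIP libraries. The number of members that passed is therefore not given for such fits, here or for CaMKIIβ RIP against Input.

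CaMKIIβ RIP was compared with the same Inputs, so the 2 comparisons with Input are not independent of each other. Here 8 of 85 members fell (9.41%) and 0 rose, by edgeR's quasi-likelihood test, against 3.4% lower and 5.06% higher (8.45% in either direction) of 22095 genes tested. At an unadjusted p under 0.05, 3 members were higher (11.5% of all genes) and 28 lower (11.1% of all genes). DESeq2 and limma-voom also called 0 members higher (9.51% and 6.2% of all genes). The median log2 fold change was -0.34 for members and -0.12 for all genes. The CaMKIIβ libraries lay wholly below the Inputs for 35 members (41.2%, against 28.6% of all genes) and wholly above for 5 (5.88%, against 18.8%). Small subunit genes made up 5 of the 8 that fell: Rps27a, Rps27, Rps13, Rps25 and Rps20. The others were Rpl7, Rpl34 and Rpl10.

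Rps27a had the largest of these changes. It was at 12.3, 12.1 and 11.8 CPM with CaMKIIβ, below the 35.0 and 51.8 CPM of Input, with a log2 fold change of -1.84 ± 0.22 (adjusted p = 0.00718). The 3 CaMKIIβ values were within 1 CPM of each other. Rps27, a zinc-binding protein of the small subunit, was at 21.9 and 32.7 CPM in Input and at 10.4, 11.6 and 6.54 CPM with CaMKIIβ, a change of -1.52 ± 0.31 (adjusted p = 0.0276). Rps13 was at 14.4 and 20.1 CPM in Input and at 6.94, 7.95 and 5.77 CPM with CaMKIIβ (-1.32 ± 0.28). The groups did not overlap in any of these genes.

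Rps25, known for its part in internal initiation, was at 59.9 and 75.4 CPM in Input and at 26.3, 38.6 and 34.0 CPM with CaMKIIβ (-1.04 ± 0.20). Rpl7 was at 95.2 and 125.5 CPM in Input and at 55.4, 63.3 and 47.7 CPM with CaMKIIβ (-0.99 ± 0.18, adjusted p = 0.0194). Rps20, Rpl34 and Rpl10 fell by 1.02 ± 0.23, 0.97 ± 0.20 and 0.95 ± 0.18. Rpl39, the member with the largest fall under IgG, was at 2.03, 17.2 and 6.93 CPM with CaMKIIβ and overlapped Input, with a log2 fold change of -1.01 ± 0.78 (adjusted p = 0.552). Rplp1 was at 21.9, 59.8 and 27.8 CPM, and its second CaMKIIβ library likewise reached the range of Input.

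These counts depended on single libraries. Without CaMKIIβ RIP replicate 2, 18 members fell (7.39% of all genes) and 2 rose (11.3% of all genes), while 18.7% of all genes passed. The remaining CaMKIIβ libraries then lay wholly below the Inputs for 53 members (62.4%, against 36.9% of all genes) and wholly above for 10 (11.8%, against 27.1%). At an unadjusted p under 0.05, 37 members were lower (15.4% of all genes) and 7 higher (17.4% of all genes), and the median was -0.34, against -0.04 for all genes. The 8 members that fell with all libraries still passed, at -1.78 for Rps27a, -1.62 for Rps27, -1.37 for Rps13, -1.10 for Rps25, -1.04 for Rps20, -1.03 for Rpl7, -1.01 for Rpl34 and -0.90 for Rpl10. Without CaMKIIβ RIP replicate 1, 0 members and 0 genes passed, and 21 members were lower and 1 higher at an unadjusted p under 0.05. The share of all genes at this p was not counted for that fit. The count that passed as lower was 5 without CaMKIIβ RIP replicate 3, where 2 rose (3.99% and 4.79% of all genes). Leaving out an Input leaves 1 Input library, so members that passed are not counted for those fits. Without Input replicate 2 falls were smaller for members such as Rps27 (log2 fold change -1.22) and Rps20 (-0.73). Without Input replicate 1 that of Rps13 was larger (-1.56). With library size scaling 17 members fell and 0 rose, and the calls over all genes moved to 6.16% lower and 3.09% higher. With a trend on exon length taken out, 3 of 85 members fell and 1 rose, against 2.96% lower and 6.29% higher of all genes, so that the share that fell was near that of all genes.

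CaMKIIβ RIP against IgG RIP asks which transcripts came down with the CaMKIIβ antibody beyond those that came down with the control antibody. No ribosomal protein gene passed the threshold: 0 of 84 members were called, as did 0.0% of 20566 genes, with a smallest adjusted p of 0.982 by edgeR's quasi-likelihood test. DESeq2 and limma-voom also called 0 members. The direction of the estimates was uneven, with 59 members above 0 and 25 below, and a median log2 fold change of 0.15 against -0.02 for all genes. An unadjusted p under 0.05 was reached by 15 members (17.9%), against 3.51% of all genes. Of these, 14 were higher with CaMKIIβ (2.21% of all genes) and 1 lower (1.3% of all genes). DESeq2 gave 15 such members (907 of 20566 genes) and limma-voom 9 (777 of 20566 genes). The CaMKIIβ libraries lay wholly above the IgG libraries for 11 members (13.1%, against 4.57% of all genes) and wholly below for 2 (2.38%, against 7.33%).

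The 95% interval lay below a 2-fold excess with CaMKIIβ for 64 of the 84 members, a share not counted over all genes with all libraries. The interval lay within 2-fold on both sides for 62, against 52.0% of all genes. Without CaMKIIβ RIP replicate 2 these numbers were 76 and 74 of 85 (89.4% and 87.1%, against 69.6% and 55.9% of all genes). On simulated counts for this comparison, with 200 genes changed, the test recovered 58% of 2-fold and 85% of 4-fold changes. The Benjamini-Hochberg cutoff is looser with 200 changed genes than with few. These shares can therefore be too high for a single changed member in data where 0 genes passed. A 2-fold excess could thus be missed for the members whose interval reached that far.

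The 5 members with the smallest p were Rps14, Rps16, Rpl18, Rpl15 and Rplp1, each with an adjusted p of 0.982. Rps14 (ENSMUSG00000024608.11, whose span in the table differs from that in RefSeq), on the mRNA exit side of the small subunit, was at 34.6, 58.0 and 75.8 CPM with CaMKIIβ and at 31.7, 26.9 and 27.9 CPM with IgG. Its libraries did not overlap between the antibodies, with a log2 fold change of 0.97 ± 0.25, and both Inputs (63.4 and 71.8 CPM) lay above every IgG library. Rps16, a small subunit protein whose tail reaches the decoding site, was at 20.2, 35.1 and 23.4 CPM with CaMKIIβ and at 14.6, 15.8 and 17.9 CPM with IgG (0.71 ± 0.23). Rpl18 was at 27.0, 63.6 and 33.7 against 26.0, 19.5 and 25.7 CPM (0.81 ± 0.29). In both, CaMKIIβ RIP replicate 2 was the highest library, and Rpl18 was separated from IgG by a narrow margin in CaMKIIβ RIP replicate 1.

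Rpl15, a core large subunit protein, was at 35.9, 53.6 and 57.5 CPM with CaMKIIβ and at 36.0, 37.3 and 32.5 CPM with IgG, and overlapped. Rps27a was the single member lower with CaMKIIβ at an unadjusted p under 0.05, at -0.42 ± 0.18. It is named for that reason after its value was seen.

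**Figure D4:**
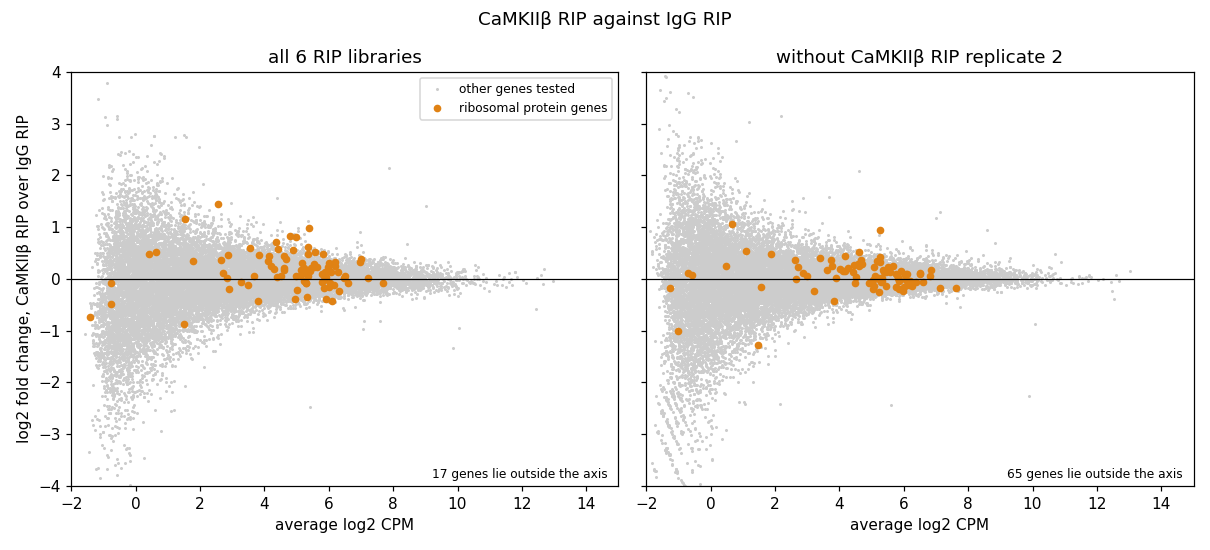
Log2 fold change of CaMKIIβ RIP over IgG RIP (y axis) against average log2 CPM (x axis) for ribosomal protein genes (orange) and the other genes tested (grey), with all libraries and without CaMKIIβ RIP replicate 2. With all libraries 59 of 84 members lie above 0, at a median of 0.15, and without replicate 2 the median is 0.0846.

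Part of this rested on single libraries, among them CaMKIIβ RIP replicate 2. Within its group it was the highest library for 41 of 77 core members, against 20 for replicate 1 and 16 for replicate 3. A skew of this kind was also present with IgG. There replicate 1 was the highest for 43 core members, replicate 2 for 10 and replicate 3 for 24. The share of all genes was not counted for either group. The median fold between the highest and the lowest library was 1.55 over core members with CaMKIIβ, 1.2 with IgG and 1.14 between the Inputs. Without CaMKIIβ RIP replicate 2, 0 of 85 members passed, and 8 reached an unadjusted p under 0.05 (9.41%, against 5.62% of all genes). Of these, 6 were higher (2.93% of all genes) and 2 lower (2.68% of all genes). The CaMKIIβ libraries then lay wholly above IgG for 14 members (16.5%, against 9.43% of all genes) and wholly below for 3 (3.53%, against 11.9%). The median log2 fold change was then 0.0846, against 7.55e-05 for all genes. Rps14 stayed at 0.95 ± 0.25, whereas Rpl18 was at 0.36 ± 0.17, Rps16 at 0.44 ± 0.17, Rpl15 at 0.41 ± 0.17 and Rplp1 at 0.28 ± 0.16, each with an adjusted p of 0.837. Over each library left out in turn, the number of members higher at an unadjusted p under 0.05 varied. It was 22, 6 and 13 without CaMKIIβ RIP replicates 1, 2 and 3, and 7, 4 and 3 without IgG RIP replicates 1, 2 and 3. The share of all genes at this p is given only for the fit without CaMKIIβ RIP replicate 2. In each of these fits 0 members passed, and 0.0% of all genes did.

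No gene of the other translation lists passed between the antibodies. For TOP mRNAs, elongation and termination factors, biogenesis factors, mitochondrial ribosomal proteins and pseudogenes, 0 genes passed. Their medians were 0.03, 0.12, 0.02, 0.06 and -0.03, next to 0.12 for the core large and 0.20 for the core small subunit. Blood markers, 4 of 5 of which had estimates above 0, summed to 180 to 356 CPM with CaMKIIβ, 160 to 177 with IgG and 318 to 319 in Input. Their part in the values of the members was not tested.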

How the data were processed

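The authors deposited raw counts per gene for 8 libraries. The submitters' processing notes name featureCounts 2.0.1, STAR 2.7.3a, Trim Galore 0.6.4 and cutadapt 2.10, and the build GRCm38.p6. The deposited table also gives an exon length for each gene, another unit used for levels per kilobase. How strand and multi-mapping reads were handled, and which annotation release was counted, is not given in the sources used here. 0 sample columns were left unmapped.

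Symbols came from RefSeq genes on GRCm38.p6 whose overlap with a table gene was 0.5 or more of the span they cover together, each the best partner of the other with no second partner at 0.8 of that share. A second pass, added after the table was seen, named genes that shared an end within 50 bases with 0.9 of the shorter span inside the other. It named 6 of the 89 members (Rpl3, Rpl11, Rpl19, Rpl36, Rps14 and Rps28).

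For each comparison, edgeR 4.0.16 (R 4.3.3) was run on the libraries of its 2 groups, with a robust quasi-likelihood test and TMM scaling, after filterByExpr (minimum count 10, minimum total 15). A gene passed at a Benjamini-Hochberg adjusted p under 0.05 over all genes tested. CPM were computed from the counts with TMM over all 8 libraries. Members and lists were chosen with earlier results of these data known. Named by rule were the 5 smallest p between the antibodies, up to 8 members per direction with the largest change past the threshold against Input, the 5 highest and lowest levels per kilobase, paralogues, members that failed the filter, and up to 4 genes of other lists. Positional groups, Rps6 and the genes so marked lie outside it.

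Same-numbered RIP libraries did not deviate together, so replicate numbers were not used as pairs. The alternatives were other scalings, filters and tools (DESeq2 1.42.0, limma 3.58.1), all libraries in 1 fit, the replicate block, an exon length trend (loess span 0.5), leaving out each library, and a fold of at least 2. Counting core proteins only was added after the data were seen. With simulated counts in which 200 genes were changed, 5, 15 and 12 unchanged genes were called between the antibodies, for CaMKIIβ RIP against Input and for IgG RIP against Input. Recovery of 2-fold and 4-fold changes was 36% and 68% for CaMKIIβ RIP against Input, and 75% and 100% for IgG RIP against Input. A result on 1 further gene is not reported here. Figures were drawn with matplotlib 3.10.9.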

Additional observations from a re-analysis of the deposited data

How the results depend on the processing

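No count or median of the members turned its direction under the alternatives run. Nor did the members named for the smallest p between the antibodies or for the largest change past the threshold against Input. Other named members, such as Rps6 and Rpl4, were not followed under the alternatives. The median of all genes in CaMKIIβ RIP against Input went from -0.12 to 0.0093 with the exon length trend taken out, that of the antibodies from -0.02 to 0.02, and that of IgG RIP against Input from -0.02 to 0.02. In CaMKIIβ RIP against Input, 8 members fell (3.4% of all genes). The number was 17 with library size scaling (6.16% of all genes), 13 without a count filter (2.94%) and 17 with DESeq2 (6.09%). It was 14 with limma-voom (5.91%), 21 in a fit of all 8 libraries (7.63%) and 3 with the exon length trend taken out (2.96%). At a fold of at least 2 it was 5, with no count over all genes. It ranged from 0 to 18 with each CaMKIIβ RIP library left out (0.0% to 7.39%). Against 0 members that rose (5.06% of all genes), 1 rose without the filter (5.39%) and 1 without the length trend (6.29%). With each CaMKIIβ RIP library left out, 0 to 2 rose (0.0% to 11.3%). The median log2 fold change of -0.34 was -0.50 with library size scaling and -0.16 without the length trend, and -0.45 to -0.23 with each library left out. In IgG RIP against Input, 9 members rose (20.1% of all genes) and 50 fell (18.7%). With library size scaling 5 rose (12.1%), and in the fit of all 8 libraries 2 rose (8.75%) and 33 fell (7.15%). Without the length trend 14 rose (20.4%). At a fold of at least 2, 0 rose and 16 fell, with no count over all genes. The median of -0.49 was -0.71 with library size scaling, where the median of all genes was -0.25. The causes were not tested.

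With the replicate number as a block, 26 members fell and 4 rose in CaMKIIβ RIP against Input. Over all 22095 genes tested there, 2219 fell and 1986 rose, against 751 and 1117 without the block. In IgG RIP against Input 53 members fell (19.3% of all genes) and 9 rose (20.6%) with the block. Between the antibodies 0 members passed, and 0.0% of all genes did. RIP replicate 3 has no Input of its number, and same-numbered CaMKIIβ and IgG libraries correlated at 0.000232, -0.017 and -0.096. The pairs with Input gave 0.125 and 0.072 for CaMKIIβ and 0.0173 and 0.0209 for IgG. With 2 such pairs each and no label on pairing, the samples are taken to share only a number. Transcripts under about 10 CPM, such as Rpl24 and Rps10, have wide intervals at this depth, and the spread of the CaMKIIβ libraries (biological coefficient of variation 0.388 against IgG and 0.477 against Input, with 0.115 for IgG against Input) limits both comparisons that use them.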
